A study of Mus musculus with 6 samples.

Results

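The genes described here are 36 antioxidant, thioredoxin and glutathione genes, chosen by name for their known roles in removing superoxide and peroxides, in the thioredoxin and glutathione systems, in the NRF2 response and in iron storage and export. These genes, and the other lists below, were chosen with earlier results of these data known. All 36 were present among the 17831 genes of the count table, and all 36 passed the filter on low counts. The study asked how the inhibitory receptor SIRPα shapes group 2 innate lymphoid cells (ILC2s), lymphocytes of the lung that release type 2 cytokines, and bulk RNAseq compared 3 WT with 3 SIRPα KO libraries of sorted lung ILC2s. WT mice were of the strain written CB57BL/6 in the labels, and SIRPα KO mice carried the SIRPalphatm1Ynliu/J allele. Mice of both groups were 6 to 8 weeks old and were given 0.5 µg of rmIL-33 through the nose on each of 3 days, and the ILC2s, taken by sorting on day 4, were kept in culture with the cytokines rmIL-2 and rmIL-7, for 18 h in one place of the study's text and 24 h in another. The methods name no Cre driver for the deletion, so it was not described as limited to ILC2s, and how many animals went into a library is not given in the sources used here.

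Cells that respire or produce superoxide need enzymes to remove it. Superoxide dismutases turn superoxide into hydrogen peroxide, which catalase, glutathione peroxidases and peroxiredoxins then reduce. Most peroxiredoxins are recharged by thioredoxin and glutathione peroxidases by glutathione, and both of these carriers are in turn reduced with NADPH. The transcription factor NRF2, held back by KEAP1, raises many of these genes under oxidative stress, and ferritin stores iron that would otherwise drive radical chemistry.

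Read totals on genes ran from 13980499 to 19051507 over the 6 libraries. Sirpa itself was low, at 4.83 to 8.57 CPM (reads per 1000000 counted, scaled) in WT and 1.74 to 4.46 CPM in SIRPα KO (log2 fold change -1.12, adjusted p = 0.115), and its groups did not overlap. The summed level of 15 ILC2 markers was 15353 to 16490 CPM in WT and 21176 to 21703 CPM in SIRPα KO, mostly from Il5. Of these markers 3 were called higher and 2 lower, Thy1 (log2 fold change -2.06) and Id2 (-0.65). Traces of some other cells moved with genotype. B cell markers summed to 232 to 481 CPM in WT against 23.1 to 84.7 CPM in SIRPα KO, with 6 of the 7 tested lower, and NK cell markers to 14.5 to 25.9 against 1.79 to 3.73 CPM, with 3 of 5 tested lower. T cell markers summed to 40.3 to 54.6 CPM in WT and 22.5 to 26.5 CPM in SIRPα KO, with 1 of 4 tested lower, Cd3g (log2 fold change -2.45, adjusted p = 0.00375), and with Cd4 and Cd5 at or near 0. Summed macrophage or dendritic cell markers ranged from 42.7 to 136 CPM in WT and from 80.3 to 124 CPM in SIRPα KO, with C1qa, C1qb and C1qc at 0 in every WT library. Epithelial, endothelial or stromal markers summed to 69.2 to 99.2 CPM in WT and 49.5 to 115 CPM in SIRPα KO, with Pecam1 higher (log2 fold change 0.87, adjusted p = 0.0421), Epcam lower (-1.18, adjusted p = 0.0354) and Scgb1a1 at 0.0639 CPM in SIRPα KO replicate 1 against 34.8 to 60.8 CPM in the other libraries. Erythroid markers ranged from 6.26 to 9.6 CPM in WT and from 1.92 to 2.17 CPM in SIRPα KO. Neutrophil or mast cell markers summed to 2.53, 6.19 and 20.9 CPM in WT replicates 1 to 3 and to 1.73 to 8.95 CPM in SIRPα KO, with Mpo at 11 CPM in WT replicate 3 and at 0 in the other libraries. The part of these traces in the results was not tested. WT replicate 3 stood apart, with a biological coefficient of variation of 42.2% to 42.8% against the other WT libraries, where these differed by 27.9% from each other and the SIRPα KO libraries by 14% to 16.5%. In the labels, WT replicates 1 and 2 bear the codes 37 and 37V1, and the codes 44 and 44V1 belong to SIRPα KO replicates 2 and 3, so libraries of one code may come from one sample, and n = 3 counts libraries, whose spread may be technical.

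Among the 36 genes, 9 had an adjusted p under 0.05 between SIRPα KO and WT in edgeR's quasi-likelihood test, or 25%, where 11.7% of all 13623 genes tested did. Of the 9, 8 were lower in SIRPα KO, where 5.81% of all genes were called lower, and 1 was higher, where 5.94% of all genes were called higher. The 8 that fell were the glutathione peroxidases Gpx4 and Gpx1, the peroxiredoxins Prdx4 and Prdx5, the superoxide dismutase Sod1, the thioredoxin Txn1, the ferritin light chain Ftl1 and the glutaredoxin Glrx. The 1 that rose was the mitochondrial peroxiredoxin Prdx3. Before adjustment, 18 of the 36 genes had a p under 0.05, or 50%, where 32% of all genes did. The median log2 fold change over the 36 genes was -0.17, with 22 lower and 14 higher, against -0.025 over all genes tested. WT and SIRPα KO libraries did not overlap for 19 of the 36 genes, or 52.8%, against 42.8% of all genes. For 15 of the 36, all SIRPα KO libraries lay below all WT libraries, against 21.2% of all genes, and for 4 they lay above, against 21.6% of all genes. In bulk RNA, fewer cells that express a gene and less of its RNA per cell cannot be told apart.

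**Figure D1:**
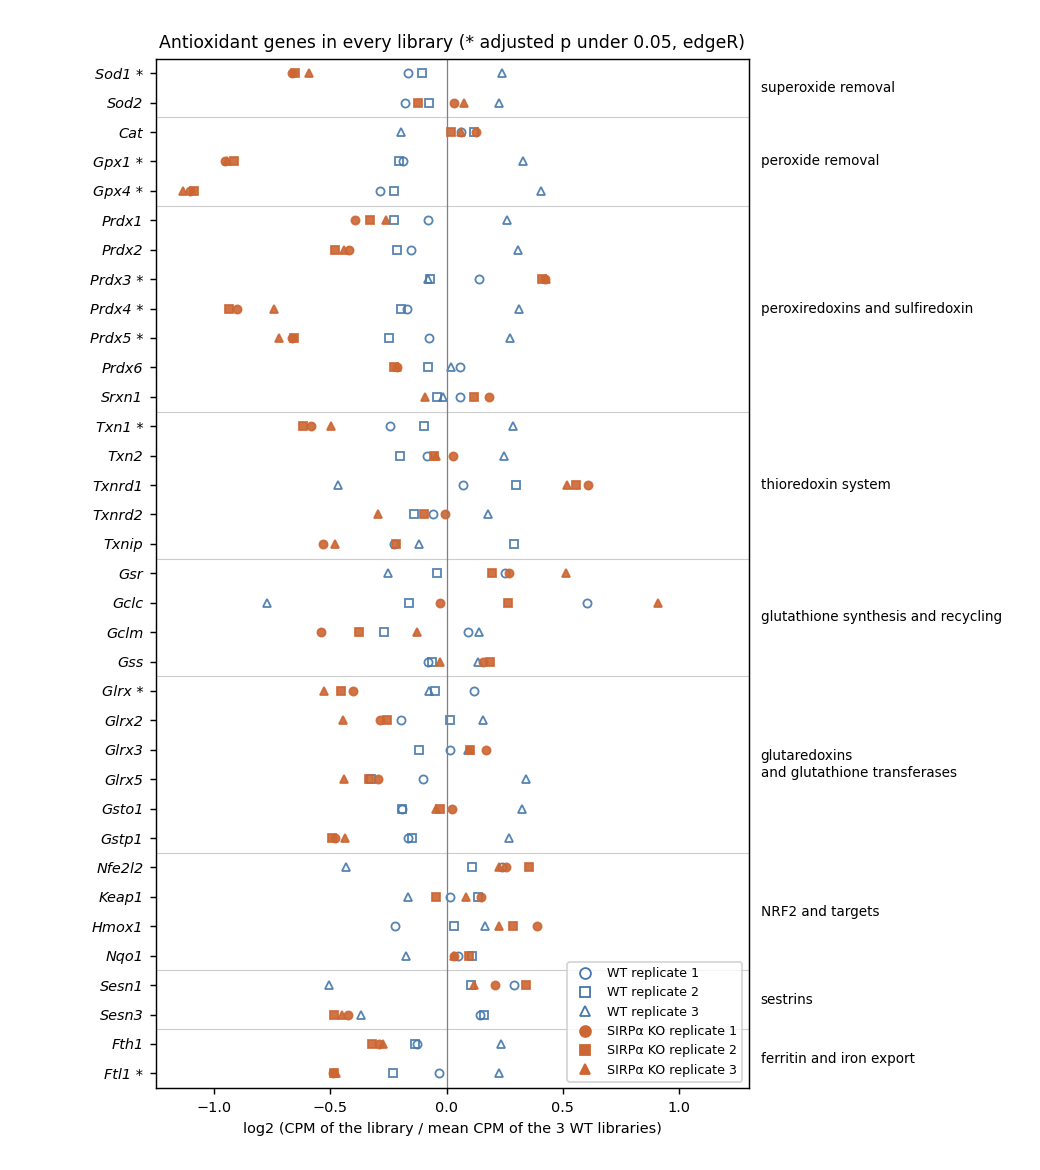
Level of 35 of the 36 genes in each library, as the log2 ratio of its CPM to the mean CPM of the 3 WT libraries (horizontal axis), grouped by role; Slc40a1, at 0 to 5.35 CPM, is left out. Open blue symbols are WT libraries and filled orange symbols SIRPα KO libraries, and asterisks mark the 9 genes with an adjusted p under 0.05; for Gpx4 and Gpx1 the 3 SIRPα KO libraries lie together far to the left of WT, and WT replicate 3 is the highest library for 18 of the 36 genes and the lowest for 10.

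The 36 genes together took 2.18% to 2.74% of the normalized reads in the WT libraries and 1.95% to 1.99% in the SIRPα KO libraries. Most of that difference was ferritin, whose fold changes turned direction with a correction described below (that of Fth1 with the principal transcript alone), and without Fth1 and Ftl1 the shares were 0.844% to 0.933% and 0.808% to 0.839%. WT replicate 3 was the highest of the 6 libraries for 18 of the 36 genes, including 7 of the 8 that fell, and the lowest for 10. Leaving it out did not remove any of the 9 calls. Without WT replicate 3, 16 of the 36 genes were called, 13 lower and 3 higher, where 18.4% of all genes tested were called. The WT libraries left are then replicates 1 and 2, which share a code and may come from one sample. Their spread may thus be technical, which can add calls, and this limit holds for every value given below without WT replicate 3. Without any one of the SIRPα KO libraries none of the 36 genes was called by edgeR, with 11 to 12 at an unadjusted p under 0.05, where 20.7% to 22.5% of all genes were, and the same was true with libraries of one code summed, which leaves 2 samples against 2 (11 at an unadjusted p under 0.05, and 23% of all genes). In those fits the whole table held 10 to 17 called genes. The log2 fold changes of the 9 genes kept their direction and a similar size there. Gpx4, at -1.11 with all libraries, lay at -1.21 to -1.09, and Prdx3, at 0.42, lay at 0.42 to 0.44. With 3 libraries against 3, an exact permutation test of a single gene cannot go below 0.1.

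Fold changes followed transcript length across the whole table. For the 9124 genes whose mean log2 CPM was 3 or more, cut into 10 bins of equal size by principal transcript, the median log2 fold change rose from -0.57 in the bin of the shortest to 0.46 in the bin of the longest. The 8 antioxidant genes that fell have principal transcripts of 641 to 1345 bases, and the median over the 36 genes was 2006 bases against 2680 bases over the genes tested. Spearman's rho between log2 fold change and transcript length was 0.50 over the 36 genes and 0.55 over the 9124, both as descriptions across genes of the same 6 libraries. Each result was therefore also fitted with a correction for the length and GC content of transcripts, taking either the longest or the principal annotated transcript of each gene. With the longest transcript 9 of the 36 genes were called, where 9.16% of all genes were, and 6 of the 9 first calls remained. With the principal transcript 7 were called, where 8.55% of all genes were, and 4 of the first calls remained (Gpx1, Gpx4, Prdx3 and Prdx4). The median log2 fold change over the 36 genes was then -0.15 with the longest and 0.02 with the principal transcript.

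How the corrected counts were scaled changed this answer. In the versions above the scaling factors were retaken after the correction, a choice made after the results had been seen. With the scaling factors of the uncorrected counts kept, which was the form tried first, the median log2 fold change of all genes moved to 0.119 with the longest transcript and 0.109 with the principal one. Then 6 of the 36 genes were called with the longest transcript, where 8.01% of all genes were, and 4 with the principal transcript, where 7.77% of all genes were, and 3 and 1 of the first 9 calls remained. Across these 4 versions Prdx3 was the only one of the 9 genes called in each. Hmox1 and Sesn3, not called without a correction, were called in all 4 as well. Corrected values given further on have the factors retaken unless the text says otherwise.

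**Figure D2:**
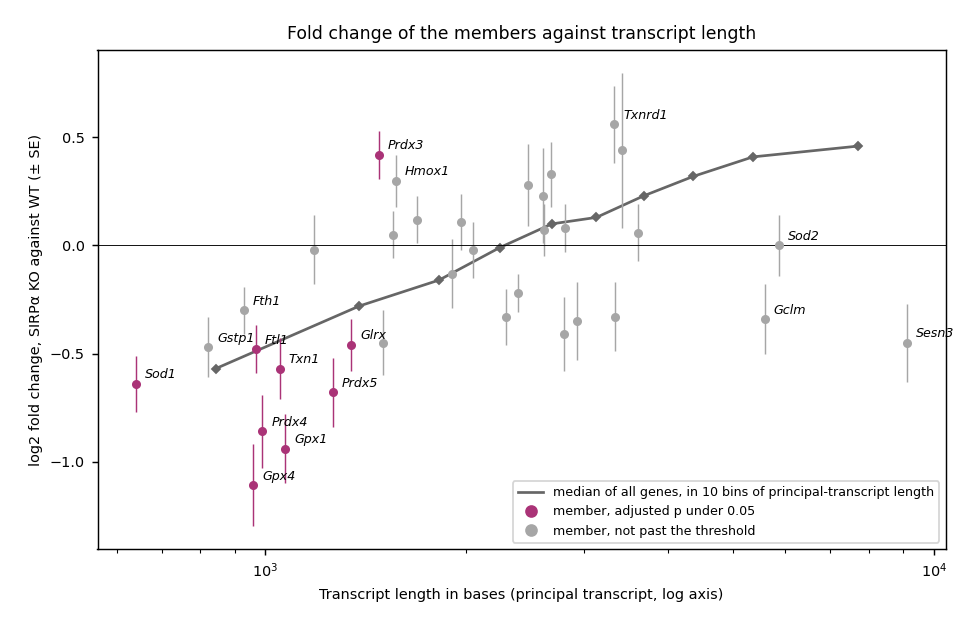
Log2 fold change of SIRPα KO against WT (vertical axis, with SE) of 35 of the 36 genes, Slc40a1 left out, against the length of the principal transcript in bases (horizontal log axis). The line joins the medians of all genes in 10 bins of length, from -0.57 to 0.46; Gpx4, Gpx1 and Prdx4 lie below it by more than their SE, Prdx3 and Hmox1 lie above it, and Ftl1 lies on it.

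Without a correction, the largest falls among the 36 genes were in glutathione peroxidases. With the principal transcript, of the genes called, Sesn3 (-1.01) and Prdx4 (-0.45) fell more than Gpx4, and with the longest Sesn3 (-0.99), Sod1 (-0.92), Glrx (-0.77) and Prdx4 (-0.50) did. Genes not called, such as Gclm, also had lower values than Gpx4 after either correction. Gpx4, on chromosome 10 from 80047166 to 80056439, reduces lipid hydroperoxides within membranes. It was counted at 252, 263 and 408 CPM in WT replicates 1 to 3 and at 143, 145 and 140 CPM in SIRPα KO replicates 1 to 3. The groups did not overlap, WT replicate 3 was the highest, and the SIRPα KO libraries lay within a few CPM of each other. Gpx4 thus had a log2 fold change of -1.11 (SE 0.19, adjusted p = 0.0172), and -0.84 without WT replicate 3 (adjusted p = 0.00129). Gpx4 has a near-identical copy in the table, Gpx4-ps2, whose reads came to 6.86% of its own, so reads could have been shared between them.

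Gpx1, the cytosolic and mitochondrial peroxidase for hydrogen peroxide, lies on chromosome 9 from 108338903 to 108340343. Its level was 240, 237 and 343 CPM in the WT replicates and 141, 145 and 142 CPM in the SIRPα KO replicates, again without overlap and highest in WT replicate 3. Its log2 fold change was -0.94 (SE 0.16, adjusted p = 0.017). After the correction with the principal transcript the log2 fold changes were -0.42 for Gpx4 (adjusted p = 0.0283) and -0.35 for Gpx1 (adjusted p = 0.0303). With the scaling factors of the uncorrected counts kept, the adjusted p was 0.0854 for Gpx4 and 0.145 for Gpx1 with the principal transcript, and 0.146 and 0.207 with the longest. Catalase, encoded by Cat, which breaks down hydrogen peroxide in peroxisomes, had a log2 fold change of 0.07 (SE 0.12, adjusted p = 0.72), with 123 to 153 CPM in WT and 143 to 154 CPM in SIRPα KO.

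**Figure D3:**
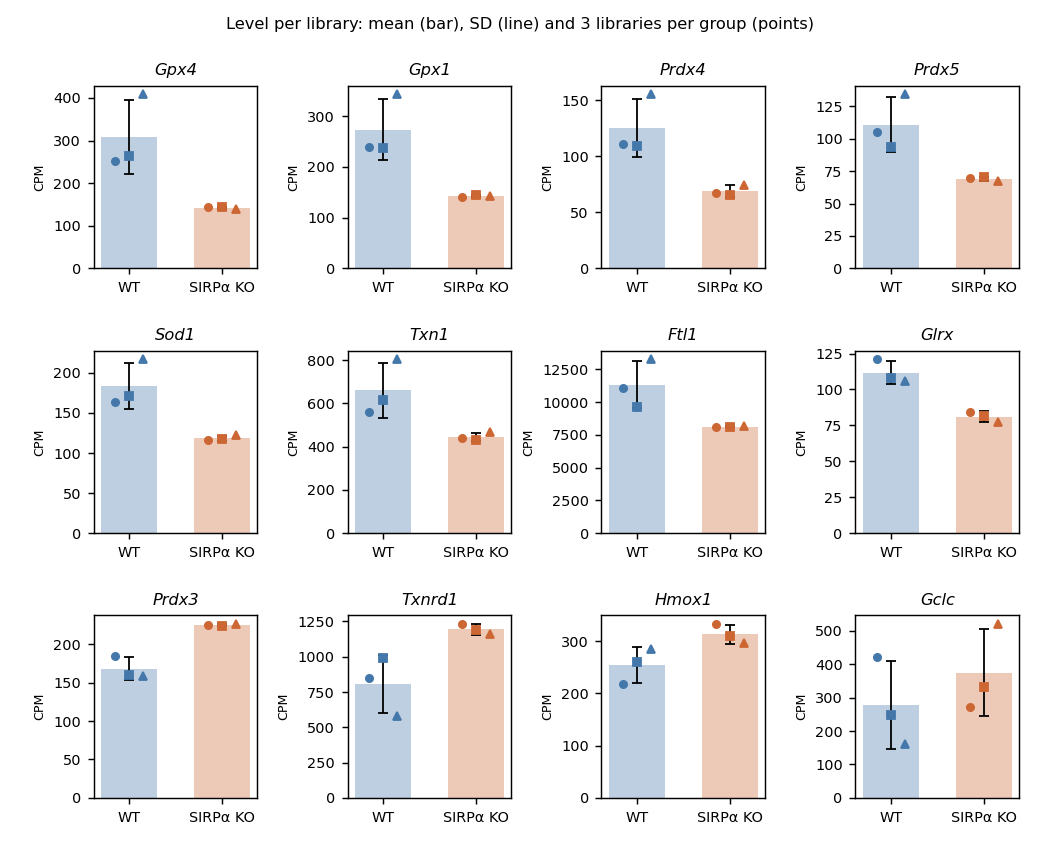
CPM (vertical axis, from 0) in WT and SIRPα KO of the 9 genes with an adjusted p under 0.05 and of Txnrd1, Hmox1 and Gclc. Bars are means, lines SDs and points the 3 libraries of each group; the SIRPα KO libraries of Gpx4 span 140 to 145 CPM, below all WT libraries, and those of Gclc span 272 to 520 CPM and overlap with WT, which spans 162 to 421 CPM.

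Of the superoxide dismutases, Sod1, the copper and zinc enzyme of the cytosol on chromosome 16 from 90220754 to 90226329, fell. Its level was 164, 171 and 217 CPM in the WT replicates and 116, 117 and 122 CPM in the SIRPα KO replicates, with no overlap. Sod1 had a log2 fold change of -0.64 (SE 0.13, adjusted p = 0.0276). This value hung on the transcript taken for the correction. It was -0.92 (adjusted p = 0.0275) with the longest transcript, of 3970 bases, and 0.00 (adjusted p = 1) with the principal transcript, of 641 bases. Sod2, the manganese enzyme of mitochondria, had 145 to 192 CPM in WT and 151 to 173 CPM in SIRPα KO, with overlap and a log2 fold change of -0.00 (SE 0.14), which was -0.60 with the principal transcript (adjusted p = 0.154).

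The peroxiredoxins moved in both directions. Of the 6 of them and sulfiredoxin, 2 genes fell, 1 rose and 4 did not pass the test. Prdx3, the peroxiredoxin of mitochondria on chromosome 19 from 60864051 to 60874556, was counted at 185, 160 and 159 CPM in the WT replicates and at 225, 223 and 226 CPM in the SIRPα KO replicates. The SIRPα KO libraries all lay above the WT libraries, and WT replicate 1 came closest. The log2 fold change was 0.42 (SE 0.11, adjusted p = 0.0461), and it was 0.32 under upper quartile scaling, where the median of all genes was -0.125, and it was no longer called. After the correction it was 0.56 (adjusted p = 0.0329) with the longest and 0.49 (adjusted p = 0.0358) with the principal transcript. Leaving out WT replicate 2, or keeping genes with low counts in the test, also ended the call of Prdx3. Its log2 fold changes were then 0.38 (adjusted p = 0.0678) and 0.44 (adjusted p = 0.0553).

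Prdx4, a peroxiredoxin of the secretory pathway on chromosome X from 155323918 to 155340754, had 111, 109 and 155 CPM in the WT replicates and 66.9, 65.3 and 74.7 CPM in the SIRPα KO replicates. The groups did not overlap and the log2 fold change was -0.86 (SE 0.17, adjusted p = 0.0238). It was -0.45 after the correction with the principal transcript (adjusted p = 0.0329), and -0.50 with the longest (adjusted p = 0.0263). With the scaling factors of the uncorrected counts kept, the adjusted p of Prdx4 was 0.103 and 0.0743. Prdx5, found in mitochondria, peroxisomes and the cytosol and encoded on chromosome 19 from 6906697 to 6910106, had 105, 93.4 and 134 CPM in the WT replicates and 69.9, 70.2 and 67.3 CPM in the SIRPα KO replicates. The groups did not overlap, and the log2 fold change of -0.68 (SE 0.16, adjusted p = 0.0337) became -0.14 with the principal transcript (adjusted p = 0.384). Prdx5 overlaps Trmt112 on the opposite strand, and no source used here says that strand was used in counting. The call of Prdx5 was lost without WT replicate 1, at a log2 fold change of -0.71 (adjusted p = 0.0551).

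Prdx1 and Prdx6, the most abundant peroxiredoxins per length, showed smaller differences that did not pass the threshold with all 6 libraries and no correction. Prdx1, a cytosolic enzyme, ranged from 1289 to 1807 CPM in WT and from 1148 to 1258 CPM in SIRPα KO (log2 fold change -0.33, adjusted p = 0.133). It was at -0.17 without WT replicate 3 (adjusted p = 0.113). Prdx1 was not called with the longest (adjusted p = 0.0783) or the principal transcript (0.0658). Prdx6, which also acts on phospholipid peroxides, ranged from 814 to 896 CPM in WT and from 736 to 743 CPM in SIRPα KO (log2 fold change -0.22, adjusted p = 0.127), and it was called without WT replicate 3 (adjusted p = 0.0494) and with the principal transcript (-0.33, adjusted p = 0.0313). For both genes the SIRPα KO libraries all lay below the WT libraries. Prdx2, another cytosolic enzyme, had a log2 fold change of -0.45 (adjusted p = 0.0905), without overlap, and was called at -0.26 without WT replicate 3 (adjusted p = 0.0377), but it overlaps Junb on the opposite strand. Srxn1, the sulfiredoxin that restores overoxidized peroxiredoxins, had a log2 fold change of 0.08 (SE 0.11) and its groups overlapped.

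In the thioredoxin system the carrier fell, and its reductase, above WT in every SIRPα KO library, did not pass the threshold. Txn1, the cytosolic thioredoxin on chromosome 4 from 57943373 to 57956411, fell, from 558, 617 and 804 CPM in the WT replicates to 440, 430 and 467 CPM in the SIRPα KO replicates. Txn1 had a log2 fold change of -0.57 (SE 0.14, adjusted p = 0.0438), and of -0.27 with the principal transcript (adjusted p = 0.0576). It was not called once WT replicate 2 was left out (-0.61, adjusted p = 0.0522), nor when low counts were kept (-0.54, adjusted p = 0.0565). Txnrd1, the selenoprotein that reduces it, was counted at 848, 993 and 584 CPM in the WT replicates and at 1232, 1190 and 1159 CPM in the SIRPα KO replicates. All SIRPα KO libraries were above all WT libraries, but WT replicate 3 was far below the other WT libraries. The log2 fold change of 0.56 (SE 0.18) did not pass the threshold (adjusted p = 0.0764), while it did without WT replicate 2 (0.74, adjusted p = 0.0295), without WT replicate 3 (0.38, adjusted p = 0.0169) and with DESeq2 (adjusted p = 0.0233). Txnrd1 was not called without WT replicate 1 (0.60, adjusted p = 0.11). Nor was it after the correction with the longest (0.42, adjusted p = 0.0862) or the principal transcript (0.35, adjusted p = 0.107). The mitochondrial pair did not pass, with log2 fold changes of -0.02 (SE 0.13) for Txn2, the thioredoxin, and -0.13 (SE 0.16) for Txnrd2, its reductase. Txnip, a protein that binds thioredoxin and limits glucose uptake, had a log2 fold change of -0.41 (SE 0.17, adjusted p = 0.147), with 99.2 to 142 CPM in WT and 80.2 to 99.7 CPM in SIRPα KO.

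None of the 4 genes of glutathione synthesis and recycling passed the test in edgeR or in DESeq2, and the smallest unadjusted p in edgeR was 0.0628. Gclc, the catalytic subunit of the enzyme that sets the rate of glutathione synthesis, varied more between libraries of one group than any other gene of the 36 apart from Slc40a1. It was counted at 421, 248 and 162 CPM in the WT replicates and at 272, 333 and 520 CPM in the SIRPα KO replicates, so that the groups overlapped over most of their range. The log2 fold change of Gclc was 0.44 with an SE of 0.36 (adjusted p = 0.43), and from 0.13 without SIRPα KO replicate 3 to 0.87 without WT replicate 1, with 0.17 without WT replicate 3, none of them called. Gclm, its modifier subunit, had a log2 fold change of -0.34 (SE 0.16, adjusted p = 0.181), with 193 to 256 CPM in WT and 160 to 213 CPM in SIRPα KO. It was at -0.92 with the principal (adjusted p = 0.0542) and -0.86 with the longest transcript (adjusted p = 0.0556). Gsr, the reductase that recycles oxidized glutathione, had one of 0.33 (SE 0.15, adjusted p = 0.178), and Gss, which completes glutathione synthesis, one of 0.11 (SE 0.13, adjusted p = 0.607). Gclm shares its locus with Gm17494 and Gss with Acss2, both on the opposite strand.

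Of the 6 glutaredoxins and glutathione transferases, 1 fell and 5 did not pass. Glrx, a cytosolic glutaredoxin that removes glutathione from proteins, lies on chromosome 13 from 75839868 to 75850154. It was counted at 121, 108 and 106 CPM in the WT replicates and at 84.6, 81.4 and 77.4 CPM in the SIRPα KO replicates. This was the only gene of the 8 that fell in which WT replicate 3 was not the highest library. For Glrx the log2 fold change was -0.46 (SE 0.12, adjusted p = 0.0449), and -0.77 with the longest (adjusted p = 0.0121) and -0.33 with the principal transcript (adjusted p = 0.149). It was not called once WT replicate 1 was left out (-0.40, adjusted p = 0.0896), nor when low counts were kept (-0.44, adjusted p = 0.0686). Gstp1, the pi class glutathione transferase, had 221 to 299 CPM in WT and 176 to 183 CPM in SIRPα KO without overlap, and a log2 fold change of -0.47 (adjusted p = 0.0671) that turned to 0.17 after the correction with the principal transcript. Gstp1 was called by DESeq2 (-0.44, adjusted p = 0.0272) and, in edgeR, without WT replicate 3, at a smaller log2 fold change (-0.30, adjusted p = 0.0232). Glrx2, Glrx3, Glrx5 and Gsto1, which act in mitochondria, in iron and iron-sulfur cluster handling and in the reduction of glutathione adducts, had log2 fold changes of -0.33, 0.12, -0.35 and -0.02, with adjusted p from 0.191 to 0.957. Without WT replicate 3 Glrx5 was at -0.14. Glrx2 was at -0.68 with the longest (adjusted p = 0.07) and -0.70 with the principal transcript (adjusted p = 0.068). The direction of Glrx3 and of Gsto1 flipped with the correction for the longest transcript, to -0.13 and 0.41 (adjusted p = 0.0349 for Gsto1).

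With all 6 libraries and no correction, NRF2, its inhibitor and 2 classical targets did not pass the test in edgeR or in DESeq2, and 1 of these 4 genes, Hmox1, had an unadjusted p under 0.05 in edgeR. Nfe2l2, which encodes NRF2, was counted at 60.1, 55 and 37.8 CPM in the WT replicates and at 60.8, 65.2 and 59.6 CPM in the SIRPα KO replicates (log2 fold change 0.28, SE 0.19, adjusted p = 0.339). Keap1, its inhibitor, had a log2 fold change of 0.06 (SE 0.13), and the quinone reductase Nqo1 one of 0.05 (SE 0.11), and both lay between -0.04 and -0.01 without WT replicate 3 or with upper quartile factors. Hmox1, the heme oxygenase that frees iron from heme, was the one of the 4 without overlap. Its level was 218, 260 and 285 CPM in the WT replicates and 333, 310 and 297 CPM in the SIRPα KO replicates. Hmox1 had a log2 fold change of 0.30 (SE 0.12, adjusted p = 0.141) without a correction, 0.40 without WT replicate 3 (adjusted p = 0.0314), 0.57 with the principal transcript (adjusted p = 0.0163) and 0.64 with the longest (adjusted p = 0.0131). It was smaller, and not called, without WT replicate 1 (0.21, adjusted p = 0.246) and with upper quartile factors (0.20, adjusted p = 0.38).

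NRF2 binds the antioxidant response element, whose core letters TGACNNNGC were searched on both strands of the RefSeq promoters, from 250 bases before to 50 bases after each start that RefSeq gives a gene (GRCm38.p6), of which some genes have several. Of the 36 genes 31 matched a promoter, and 6 of these held the letters, or 19.4%, against 14% of the 27025 genes in the promoter table. Prdx6, Gsr, Gclc, Hmox1 and Slc40a1 matched no promoter and so were not searched. The match of Txnrd1 is at an internal start, 25255 bases inside the gene as annotated. The 6 are shown because the fold changes of these 6 genes lay on both sides of 0. Capitals mark the matched letters, and each run is read 5′ to 3′ on the minus strand of the genome, on chr3:122245413-122245441 for Gclm, chr2:75704885-75704913 for Nfe2l2, chr4:116685456-116685484 for Prdx1, chr16:90220696-90220724 for Sod1, chr2:152105542-152105570 for Srxn1 and chr10:82859104-82859132 for Txnrd1.
Gclm: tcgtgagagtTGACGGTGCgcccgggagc
Nfe2l2: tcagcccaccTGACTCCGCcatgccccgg
Prdx1: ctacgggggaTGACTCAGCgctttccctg
Sod1: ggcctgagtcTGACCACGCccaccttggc
Srxn1: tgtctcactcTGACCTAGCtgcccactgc
Txnrd1: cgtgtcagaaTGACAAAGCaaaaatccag
Of these 6 genes Sod1 alone was called in the uncorrected comparison. The log2 fold changes of the others ran from -0.34 for Gclm to 0.56 for Txnrd1. A match of letters is not a binding site, and binding was not measured.

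With all 6 libraries and no correction, neither sestrin passed the test in edgeR or in DESeq2 (adjusted p = 0.0919 for Sesn3), and Sesn3 had an unadjusted p of 0.0328. Without WT replicate 3, edgeR called Sesn3 (-0.60, adjusted p = 0.0118). Sesn3, of a family of stress-induced regulators of mTORC1, has the longest principal transcript of the 36 genes, at 9125 bases. It was counted at 59.9, 60.6 and 42 CPM in the WT replicates and at 40.4, 38.7 and 39.6 CPM in the SIRPα KO replicates. The groups did not overlap, and WT replicate 3 lay just above the SIRPα KO libraries. For Sesn3 the log2 fold change was -0.45 (SE 0.18, adjusted p = 0.123), and -1.01 after the correction with the principal transcript (adjusted p = 0.00459). Sesn1, a related p53 target, had a log2 fold change of 0.23 (SE 0.22) with overlap between the groups.

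**Figure D4:**
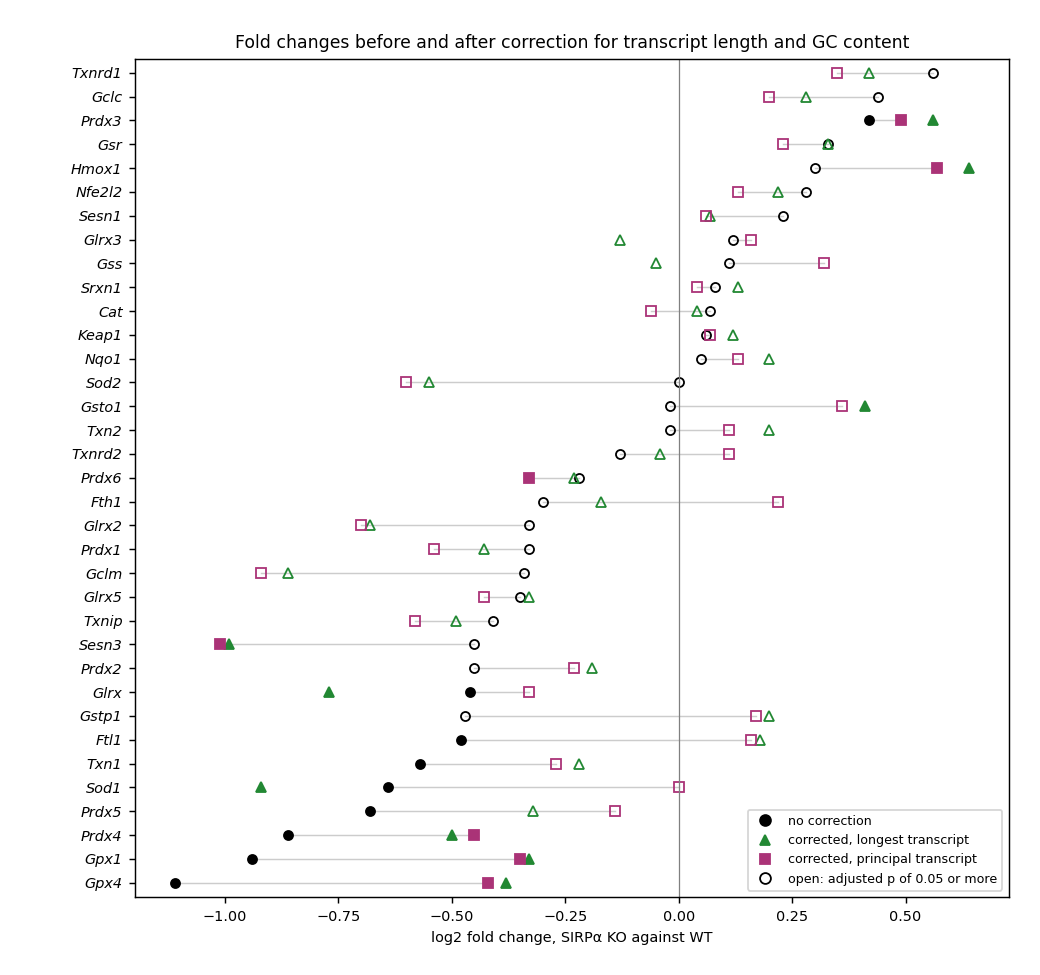
Log2 fold change of SIRPα KO against WT (horizontal axis) of 35 of the 36 genes, Slc40a1 left out, without a correction (circles), with the correction for the longest transcript (triangles) and for the principal transcript (squares), scaling factors retaken after each correction. Filled symbols have an adjusted p under 0.05; Gpx4 moves from -1.11 to -0.42 and Ftl1 from -0.48 to 0.16, whereas Prdx3 stays between 0.42 and 0.56.

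Ferritin transcripts were the most abundant of the 36 genes per length. Ftl1, the ferritin light chain on chromosome 7 from 45457944 to 45459884, had a mean of 11706 CPM per kb in WT and 8386 CPM per kb in SIRPα KO, and Fth1, the heavy chain that oxidizes iron for storage, 4405 and 3588 CPM per kb. Both chains together took 1.34% to 1.81% of the normalized reads in the WT libraries and 1.14% to 1.15% in the SIRPα KO libraries. Ftl1 was counted at 11087, 9646 and 13261 CPM in the WT replicates and at 8088, 8110 and 8154 CPM in the SIRPα KO replicates. Its groups did not overlap and its log2 fold change was -0.48 (SE 0.11, adjusted p = 0.0351). The call was lost without WT replicate 1, at a log2 fold change of -0.49 (adjusted p = 0.0567). After the correction the log2 fold change of Ftl1 was 0.18 with the longest and 0.16 with the principal transcript. Ftl1 has 5 near-identical copies in the table, whose reads came to 6.64% of its own. Fth1 had 3744, 3725 and 4807 CPM in the WT replicates and 3343, 3273 and 3382 CPM in the SIRPα KO replicates, without overlap. The log2 fold change of Fth1 was -0.30 (SE 0.11, adjusted p = 0.114), and 0.22 with the principal transcript (adjusted p = 0.0548). Without WT replicate 3, Fth1 was called at -0.16 (adjusted p = 0.022).

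Slc40a1, which encodes the iron exporter ferroportin, was at the edge of detection. WT replicates 1 to 3 held 93, 16 and 0 of its reads, and SIRPα KO replicates 1 to 3 held 26, 73 and 20. The 0 in WT replicate 3 allows up to 0.196 CPM at 3 counts, for counting error only. The libraries of both groups were spread over each other, and the log2 fold change was 0.05 with an SE of 1.19.

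Translation of ferritin and stability of the transferrin receptor mRNA are set by iron regulatory proteins, which bind a hairpin with a bulged C, 5 paired bases and a CAGTGN loop. This hairpin was searched in the untranslated regions of the principal transcripts (GENCODE M21, mm10). In the 5′ untranslated region it was found in 3 of the 36 genes, Fth1, Ftl1 and Slc40a1, and in 21 of 20252 transcripts, or 0.104%. In the 3′ untranslated region 0.535% of 20730 transcripts held at least 1, and Tfrc, the transferrin receptor, held 4. The hairpins of the 3 genes are shown, with 1 of Tfrc, because in the uncorrected comparison Ftl1 fell and Tfrc rose. The search fixed the first 5 letters of the loop, so all hits share them. Capitals mark the loop, in runs of 27 bases on chr19:9982733-9982759 (plus strand) for Fth1, chr7:45459780-45459806 (minus) for Ftl1, chr1:45925466-45925492 (minus) for Slc40a1 and chr16:32631220-32631246 (plus) for Tfrc.
Fth1: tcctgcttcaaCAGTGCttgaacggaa
Ftl1: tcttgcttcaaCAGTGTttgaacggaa
Slc40a1: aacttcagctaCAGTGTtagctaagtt
Tfrc: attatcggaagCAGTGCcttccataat
The presence of the letters says nothing of whether the hairpin was bound in these cells, and protein was not measured here.

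Of 14 tested genes from a list of other iron genes, 3 rose and 1 fell. Over all genes tested, 5.94% were called higher and 5.81% lower. Tfrc, which takes up iron bound to transferrin, was counted at 217, 245 and 139 CPM in the WT replicates and at 528, 512 and 495 CPM in the SIRPα KO replicates, far apart. Its log2 fold change was 1.35 (SE 0.20, adjusted p = 0.0133), and 0.86 after the correction with the principal transcript (adjusted p = 0.00305). Ireb2, which encodes an iron regulatory protein, rose by 1.64 on the log2 scale (adjusted p = 0.0178), and by 1.11 after the correction (adjusted p = 0.0176). Ncoa4, the receptor that delivers ferritin to lysosomes, rose by 0.61 (adjusted p = 0.0456), with 0.18 after the correction (adjusted p = 0.473). Its call was also lost without WT replicate 1 (adjusted p = 0.089), with upper quartile factors (0.0616) and when low counts were kept (0.0565). The log2 fold changes of Ncoa4 in those fits were 0.52, 0.51 and 0.63. Cisd1, an iron-sulfur protein of the outer mitochondrial membrane, fell by 0.77 (adjusted p = 0.0267), with -0.34 after the correction (adjusted p = 0.0725), where its relative Cisd2 was called instead (-0.72, adjusted p = 0.025).

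**Figure D5:**
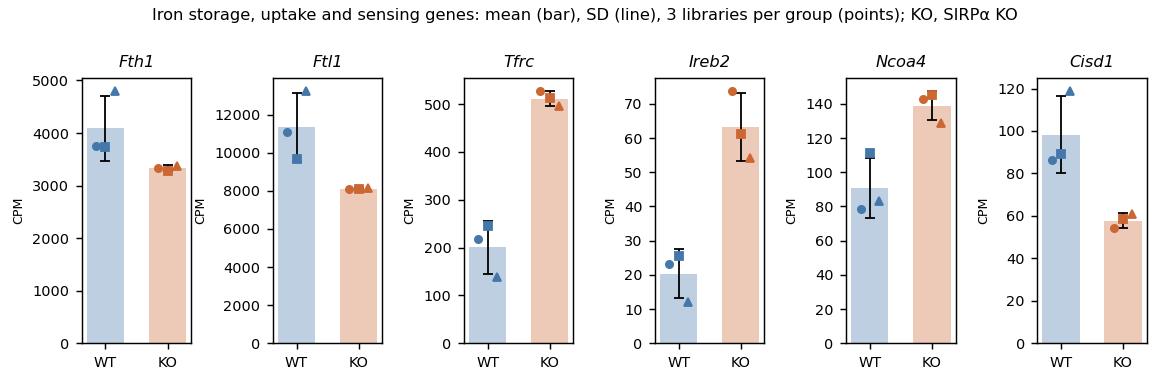
CPM (vertical axis, from 0) of the ferritin genes Fth1 and Ftl1 and of the 4 other iron genes with an adjusted p under 0.05, in WT and SIRPα KO (KO). Bars are means, lines SDs and points the 3 libraries of each group; Tfrc spans 139 to 245 CPM in WT and 495 to 528 CPM in SIRPα KO, whereas Ftl1 is higher in every WT library.

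The other genes of these pathways were taken from lists written by role, iron genes included, and 19 of the 110 tested were called, or 17.3%, where 11.7% of all genes were. None of them was called by edgeR without any one SIRPα KO library (31 to 36 at an unadjusted p under 0.05, and 20.7% to 22.5% of all genes). Their log2 fold changes kept direction there, with Tfrc at 1.33 to 1.38. Of 22 further NRF2 partners and targets tested, 2 rose and 2 fell, where 5.94% of all genes were called higher and 5.81% lower. Me1, which makes NADPH, rose by 0.82 (adjusted p = 0.0175) and the glutathione conjugate exporter Abcc1 by 1.03 (adjusted p = 0.0268). Rbx1, a subunit of the ligase that degrades NRF2, fell by 0.76 (adjusted p = 0.0335) and the biliverdin reductase Blvrb fell by 0.91 (adjusted p = 0.0494). After the correction with the principal transcript Me1, Abcc1 and Rbx1 remained called, with log2 fold changes of 0.55, 0.70 and -0.70, and Blvrb did not (adjusted p = 0.308), while G6pdx was called as well (0.41, adjusted p = 0.0383). The call of Blvrb was near the threshold. It was also lost without WT replicate 1 (adjusted p = 0.0748), without WT replicate 3 (0.0505), when low counts were kept (0.0652), with thinning (0.0501) and with the size factors of DESeq2 (0.0503). In that order its log2 fold changes were -0.94, -0.68, -0.89, -0.91 and -0.91. The call of Abcc1 was lost without WT replicate 1 (log2 fold change 1.04, adjusted p = 0.0573).

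Of 22 further glutathione genes tested, 1 rose and 1 fell, where 11.7% of all genes were called in either direction. Gstm1, a mu class glutathione transferase, had 212, 188 and 203 CPM in the WT replicates and 329, 321 and 311 CPM in the SIRPα KO replicates. Its log2 fold change was 0.67 (SE 0.10, adjusted p = 0.0136), and it was larger after the correction with the principal transcript, at 1.04 (adjusted p = 0.00351). Mgst3, a microsomal transferase with peroxidase activity, fell by 1.81 (adjusted p = 0.0119), from 12.6 to 18.3 CPM in WT to 3.91 to 4.46 CPM in SIRPα KO, with -1.44 after the correction (adjusted p = 0.00894), where Gstt2 was called too (0.83, adjusted p = 0.0257).

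Among 18 genes of selenoproteins and their synthesis, a class that includes Gpx1, Gpx4 and Txnrd1, 1 rose and 3 fell. Of all genes tested, 5.94% were called higher and 5.81% lower, a share that applies to each list below too. Selenoi, a phospholipid synthesis enzyme, rose by 0.82 (adjusted p = 0.0374), and the small selenoproteins Selenow, Selenoh and Selenok had log2 fold changes of -0.98, -0.85 and -0.66 (adjusted p from 0.029 to 0.0353). After the correction with the principal transcript Selenok alone of these 4 was called (log2 fold change -0.63, adjusted p = 0.022). Of 9 other oxidant removal genes tested, Msrb1, a methionine sulfoxide reductase that is itself a selenoprotein, was the 1 gene called and fell by 1.21 (adjusted p = 0.0283), with -0.75 after the correction with the principal transcript (adjusted p = 0.0739). That correction turned the calls on this list to 2 rises and moved its median from -0.08 to 0.15. The 2 were Park7 (from -0.24 to 0.40, adjusted p = 0.0208), whose direction flipped, and Oxr1 (0.88, adjusted p = 0.0276), and with the longest transcript Park7 alone was called (0.32, adjusted p = 0.0475). Of 15 other thioredoxin-fold genes, Tmx3 rose by 0.93 (adjusted p = 0.0381) and Txndc12 fell by 0.75 (adjusted p = 0.0326), both enzymes of the endoplasmic reticulum. After the correction neither was called, with log2 fold changes of 0.43 for Tmx3 (adjusted p = 0.113) and -0.59 for Txndc12 (adjusted p = 0.068). Txndc5 was called higher instead (0.50, adjusted p = 0.042). Without WT replicate 1 and without a correction, the calls of Tmx3 (adjusted p = 0.0695), Txndc12 (0.0635), Msrb1 (0.0552) and Selenow (0.0509) were lost as well. Their log2 fold changes there were 0.96, -0.65, -1.17 and -1.02. The genes called on these lists only after a correction were chosen for naming after their values were seen.

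Genes that make reactive oxygen were also measured. Of 10 tested, 2 were called in edgeR's test, and both fell, where 5.81% of all genes were called lower. Cyba, the membrane subunit of the NADPH oxidase, was counted at 511, 440 and 690 CPM in the WT replicates and at 288, 271 and 291 CPM in the SIRPα KO replicates, without overlap. Its log2 fold change of -0.95 (SE 0.16, adjusted p = 0.0178) became -0.16 with the principal transcript (adjusted p = 0.235). Rac2, the small GTPase that switches the oxidase on in blood cells, fell by 0.55 (SE 0.09, adjusted p = 0.0154), and by 0.64 after the correction (adjusted p = 0.00782), where Ero1lb was called too (-0.76, adjusted p = 0.0496).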

How the data were processed

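RNA of sorted and cultured lung ILC2s was sequenced in bulk, as 3 WT and 3 SIRPα KO libraries made by cDNA amplification from 10 pg of RNA. Estimated counts per gene, unscaled, were deposited by the authors after alignment to mm10 with GENCODE M21. The submitters' processing notes name Partek 10.0, STAR 2.7.8 and DESeq2, and the methods name other versions of Partek and STAR. The treatment of reads that fit several genes is not given in the sources used here. The table was analysed as one table of 17831 genes, of which 217 columns are listed singly in the record of columns.

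Counts were rounded to whole numbers, filtered with filterByExpr (minimum count 10, minimum total count 15), given TMM factors and tested with edgeR 4.0.16 (quasi-likelihood F test, genotype only, R 4.3.3, limma 3.58.1) with Benjamini-Hochberg adjustment over 13623 genes. The threshold was an adjusted p of 0.05. Every adjusted p in the text comes from this test unless DESeq2 1.42.0 is named. SEs were taken from the F statistic. CPM used the TMM-scaled library sizes.

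The members and lists were chosen with earlier results of these data known. All 36 members are named, and of each other list the called genes, at most 3 rises and 3 falls. The 18 alternatives were DESeq2, other scalings and filters, a replicate block, each library left out, summed libraries of one code, counts thinned to the depth of the smallest library, and 4 versions of a correction for the length and GC content of transcripts. It used as offsets the values of splines (5 degrees of freedom) fitted, per library, to the deviations of 8959 genes. The 36 members were left out of that fit, and genes of the other lists were not. Lengths were known for 99% of the genes tested. Near-identical copies were sought with BLAST+ 2.17.0 (95% identity over 50% of the length). Figures were drawn with matplotlib 3.10.9. The procedures were run on simulated counts of independent libraries with the same spread for every gene, which is simpler than the spread in these data. The single-cell, flow cytometry and respiration data of the study were not analysed here.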

Additional observations from a re-analysis of the deposited data

How the results depend on the processing

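The principal transcript and the retaken scaling factors were chosen after seeing the data, and the cause of the differences below was not tested. Called antioxidant genes numbered 9, with the share of all genes called in the same fit at 11.7%, given in brackets below. DESeq2 gave 11 (17.8%), its size factors in edgeR 9 (11.8%) and upper quartile factors 8 (12.6%). No filter gave 6 (6.46%), another filter 9 (13.7%) and thinning 9 (11.9%). They numbered 0 to 16 with one library left out (0.112% to 18.4%) and 0 with libraries of one code summed (0.0686%). Under the 4 corrections they numbered 9, 7, 6 and 4 (longest and principal transcript with scaling factors retaken, then longest and principal with the first factors kept). The shares of all genes there were 9.16%, 8.55%, 8.01% and 7.77%. The whole table held 1600 called genes, 3170 with DESeq2, 16 to 2606 with one library left out, 10 with codes summed, and 1248, 1165, 1091 and 1058 under the 4 corrections. Called genes on the other lists numbered 19, 35 with DESeq2, 0 to 31 with one library left out and 0 with codes summed (34 at an unadjusted p under 0.05). The median log2 fold change of -0.17 was -0.28 with upper quartile factors, -0.24 to -0.13 with one library left out, and -0.15, 0.02, -0.02 and 0.14 under the 4 corrections. Genes without overlap numbered 18 to 19 under other scalings, filters and thinning (35.8% to 44.4% of all genes), 23 to 24 under the 4 corrections (34.3% to 36.6%), 20 to 25 with one library left out (47.1% to 55.3%) and 26 with codes summed (62.9%), where fewer libraries make overlap rarer.

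With a replicate block, 6 of the 36 genes were called, where 8.21% of all genes were, and all 6 were first calls, while Prdx3, the only rise (adjusted p = 0.0859), Prdx5 (adjusted p = 0.058) and Glrx (adjusted p = 0.085) were not called. Their log2 fold changes with the block were 0.42, -0.66 and -0.46. On the other lists the block ended the calls of Txndc12 (adjusted p = 0.0669), Blvrb (0.0807), Selenoi (0.053), Selenoh (0.0534) and Ncoa4 (0.053). The log2 fold changes there were -0.74, -0.88, 0.85, -0.83 and 0.63. Same-numbered libraries had deviations that correlated at -0.143, 0.191 and 0.0455, so the numbers were not taken as pairs.

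Log2 fold changes changed sign in these cases. Sod2, at -0.00, was at 0.02 with DESeq2 and without a filter, 0.01 with its size factors and with the block, and -0.08 to 0.14 with one library left out. Upper quartile factors gave -0.02 for Cat, -0.03 for Keap1, -0.04 for Nqo1, -0.02 for Srxn1 and -0.01 for Slc40a1. DESeq2, no filter and the replicate block each gave 0.01 for Gsto1. With one library left out, the values ran from -0.01 to 0.13 for Cat, -0.12 to 0.12 for Txn2, -0.01 to 0.13 for Keap1, -0.02 to 0.11 for Nqo1, -0.11 to 0.19 for Gsto1 and -0.58 to 1.99 for Slc40a1. Under the 4 corrections, in the order above, Txn2 was at 0.20, 0.11, 0.33 and 0.24, Gsto1 at 0.41, 0.36, 0.54 and 0.48, Gstp1 at 0.20, 0.17, 0.31 and 0.28, Ftl1 at 0.18, 0.16, 0.29 and 0.27, and Slc40a1 at -0.20, -0.21, -0.14 and -0.14. The last 3 gave 0.11, 0.09 and 0.23 for Txnrd2. The principal transcript gave 0.22 and 0.33 for Fth1, -0.06 for Cat with factors retaken, and 0.11 for Sod1 with factors kept. The longest transcript gave -0.05 for Gss and -0.13 for Glrx3. Of the 36 genes, Slc40a1 alone had a library with 0 reads, where depth limits its level, and thinning moved its fold change from 0.05 to 0.13.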
